A study of Mus musculus with 5 samples.

Results

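The 10 genes described here are the IL-6 family cytokines *Il6*, *Lif*, *Il11* and *Clcf1*, their shared receptor subunit *Il6st*, the transcription factor *Stat3* with its feedback inhibitor *Socs3*, the alarmin *Il33* with its receptor *Il1rl1*, and the macrophage growth factor *Csf1*. They were taken by gene symbol, and all 10 have a row among the 21835 genes of the expression table. The rule uses no measured value, but the 10 genes and all lists were chosen with earlier results of these data known. Their shares of calls are therefore descriptions beside the shares of all genes. The table compares 2 samples of murine lung cancer-associated fibroblasts (CAFs) carrying an empty lentiviral vector (CAF-vec) with 3 samples overexpressing the cluster of miR-200a, miR-200b and miR-429 (CAF-200). Both groups were grown in alpha-MEM with 10% FBS and, per the labels, selected with G418 for a neomycin vector, whereas the study's methods name a hygromycin vector for miR-200. The labels and the sequencing methods call the cells of both groups CAFs, although the methods on the vector name lung fibroblasts (LFs) as the cells that received it. The methods state RNA extraction in triplicate for both groups, but 2 CAF-vec samples were analysed here, and every difference rests on these 2 controls. The labels call the control genotype WT, and the strain and age of the donor mice are not given in the sources used here. Nothing states that the samples of a group came from separate cultures or animals, so *p* values measure the spread between these samples, which may be technical. The comparison addresses which transcripts of cytokines and their signaling differ when CAFs carry excess miR-200.

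The cytokines of the IL-6 family bind receptors that all signal through gp130, the product of *Il6st*. Ligand binding activates Janus kinases, which phosphorylate STAT3, and STAT3 in turn induces *Socs3*, whose product shuts the receptor complex off. IL-33 belongs to the IL-1 family and signals through ST2, the product of *Il1rl1*, together with the accessory chain IL1RAP. In tumors, IL-6 and LIF mark the inflammatory state of CAFs, and CSF1 sustains macrophages.

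The expressed microRNAs share 2 seeds (bases 2 to 8, in capitals), which are shown because the letters they pair with were searched in the 10 genes. The mature sequences are those of RefSeq (GRCm38.p6, minus strand), at chr4:156055685-156055706 for miR-200b, chr4:156054911-156054932 for miR-200a and chr4:156053916-156053937 for miR-429. The seed of miR-200b is also that of miR-429, and miR-200a has another.
mmu-miR-200b-3p: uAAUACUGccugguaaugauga
mmu-miR-429-3p: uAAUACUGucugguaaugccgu
mmu-miR-200a-3p: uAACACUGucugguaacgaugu

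A site that pairs with the miR-200b and miR-429 seed reads CAGTATT, and one for miR-200a reads CAGTGTT. In the longest annotated 3′-UTR of each gene (GENCODE M21, GRCm38), 5 of the 10 genes held such a match. Among 12060 tested genes with an annotated 3′-UTR, 30.3% held either match, 15.7% that of miR-200b and miR-429 and 20.9% that of miR-200a, at a median length of 1174 bases. The sites are printed with 8 bases on either side, 5′ to 3′ on the strand of the gene and with the match in capitals. They lie at chr1:40463136-40463158 (plus strand) for *Il1rl1*, chr11:4269986-4270008 (plus) for *Lif*, chr11:100886207-100886229 (minus) for *Stat3*, chr19:29960590-29960612 (plus) for *Il33*, and chr13:112505763-112505785 and chr13:112509524-112509546 (both plus) for *Il6st*.
Il1rl1, miR-200b and miR-429: tgtcaagtCAGTATTaacagatt
Lif, miR-200a: taggtcacCAGTGTTcaggctcc
Stat3, miR-200a: gcagggatCAGTGTTcttagcac
Il33, miR-200a: ggaaaccaCAGTGTTgactctgt
Il6st, miR-200a, first site: taggcatcCAGTGTTtagcacta
Il6st, miR-200a, other site: ctggtacaCAGTGTTggcctcaa

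The *Lif* site and the *Il33* site are in an exon of both coding transcripts of their genes, whereas the *Stat3* site is in 1 of 4, the *Il6st* sites are in 2 and 1 of 9, and the *Il1rl1* site is in 2 of 4. The 3′-UTRs searched were 3246 bases long for *Il1rl1*, 3180 for *Lif*, 3701 for *Stat3*, 1677 for *Il33* and 5641 for *Il6st*, all above the median. No match was found in *Il6* (1668 bases), *Il11* (1194 bases), *Clcf1* (922 bases), *Socs3* (1474 bases) or *Csf1* (2111 bases). A match describes letters in a sequence, and no test of binding belongs to these data.

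Of the 10 genes, 9 passed the filter on low values and were tested, and *Il33* was listed at 0 in all 5 samples. Values are in CPM, scaled to the same total in every sample, log2 fold-changes (log2FC) are differences of log2(CPM + 0.5) with their standard errors (SE), and a gene was called at an adjusted *p* under 0.05. At that threshold 5 of the 9 genes were higher in CAF-200 (*Il6*, *Lif*, *Il11*, *Clcf1* and *Csf1*) and 1 was lower (*Il1rl1*), against 11.9% higher and 18.6% lower among all 12175 genes tested. *Lif* reached the filter through its CAF-200 values, so a call could go one way for it, and without *Lif* 4 of 8 genes were higher, with a median log2 fold-change of 0.46. The median log2 fold-change was 0.66 for the 9 genes and -0.09 for all genes tested. The CAF-200 and CAF-vec values did not overlap for these 6 genes, as they did not for 61.6% of all genes tested. None of the 9 passed an adjusted *p* under 0.01 together with a log2 fold-change beyond 1 (limma), thresholds that 4.72% of all genes passed (2.37% higher and 2.35% lower), while 6 had an unadjusted *p* under 0.05, against 44.9% of all genes. Over all genes, 39.0% of the calls were higher in CAF-200, and this share moved to 48.5% with quantile normalization and to 51.6% with values centred on the median of each sample, which bears on the direction of small differences.

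**Figure D1:**
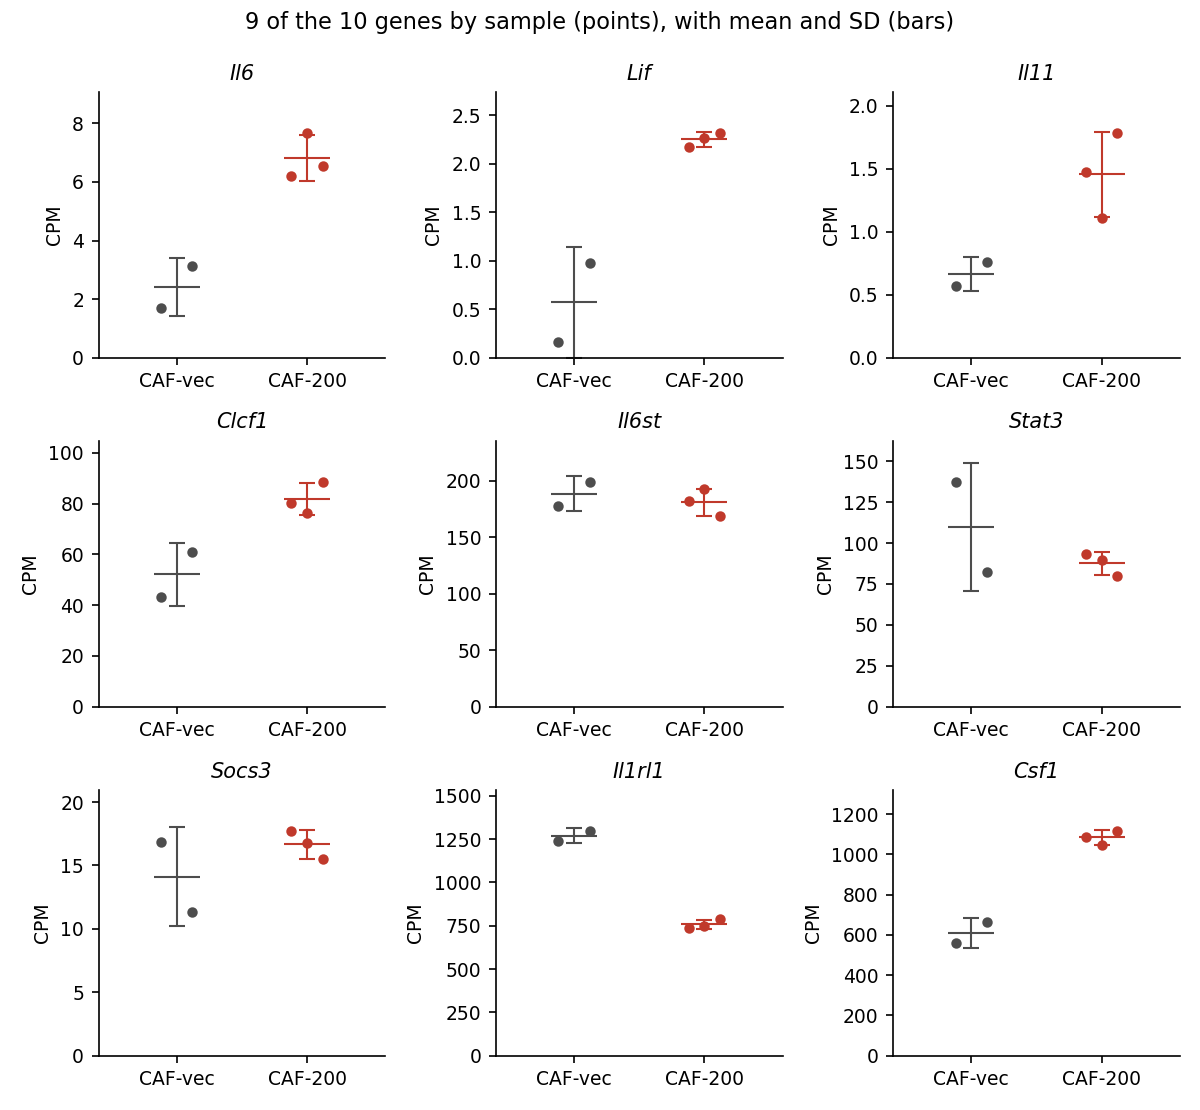
Values in CPM of 9 of the 10 genes in each CAF-vec sample (gray points, 2 samples) and CAF-200 sample (red points, 3 samples), with the mean as a wide bar and the SD as capped bars; each vertical axis starts at 0 and has its own scale. The CAF-200 points of Il6, Lif, Il11, Clcf1 and Csf1 lie above both CAF-vec points, those of Il1rl1 lie below them, and those of Il6st, Stat3 and Socs3 overlap them; Il33, at 0 throughout, is not drawn.

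Depth, sample spread and cell identity set the limits of these values. The columns sum to between 999956 and 1000111 CPM, so the number of reads per sample is unknown. The SD over genes of the log2 difference reached 0.49 in CAF-vec but only 0.19 to 0.20 within CAF-200. *Zeb1*, a target of miR-200, was 43.5 and 50.7 CPM in CAF-vec against 37.8, 37.5 and 34.1 CPM in CAF-200. It was not called (log2FC -0.36, limma adjusted *p* = 0.0504), and its log2FC ran from -0.47 to -0.25 over the alternatives. *Zeb2* was 46.2 and 29.8 CPM against 31.9, 31.8 and 31.1 CPM (-0.23, limma adjusted *p* = 0.374), and its log2FC was 0.08 without CAF-vec 1. The microRNAs themselves were not analysed here. Of 10 fibroblast markers, all but *Fap* passed the filter on low values, and the list summed to 7457 to 14148 CPM in CAF-vec against 6609 to 7302 CPM in CAF-200, and *Dcn*, *Lum* and *Thy1* were higher in CAF-200 past both thresholds named above, by 2.75, 2.82 and 1.46 on the log2 scale (limma). The median log2 fold-change of the 9 tested markers was -0.20, and 5 lay below 0 without a call, namely *Col1a1* (-0.91, limma adjusted *p* = 0.0982), *Col1a2* (-0.75, 0.112), *Vim* (-0.39, 0.246), *Pdgfrb* (-0.25, 0.0776) and *Pdgfra* (-0.20, 0.284). All 5 stayed below 0 in each alternative. The log2FC ran from -1.51 to -0.31 for *Col1a1*, the largest change, and from -0.37 to -0.03 for *Pdgfra*, the smallest. *Col3a1* lay above 0 without a call (1.02, limma adjusted *p* = 0.0542). It was called higher after quantile normalization or centring and with the replicate block, and ran from 0.47 to 1.56 over the alternatives. Markers of epithelial cells summed to at most 0.583 CPM in any sample, with *Krt18*, *Sftpc* and *Nkx2-1* listed at 0. Markers of endothelial cells summed to 0.388 to 0.857 CPM in CAF-vec against 1.02 to 1.61 CPM in CAF-200, with *Emcn*, *Cldn5* and *Tie1* at 0. *Egfl7*, the endothelial marker that was tested, was 0 and 0.33 CPM against 1.47, 1.19 and 0.718 CPM (log2FC 1.31, limma adjusted *p* = 0.0270), and it reached the filter through its CAF-200 values alone.

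*Il6* (ENSMUSG00000025746, chromosome 5 of GRCm38, 30013114 to 30019981, plus strand) encodes the cytokine that gives the family its name. It was 1.70 and 3.12 CPM in CAF-vec against 6.21, 7.69 and 6.56 CPM in CAF-200. Every CAF-200 value lay above both CAF-vec values, and the CAF-vec values differed from each other more, relative to their mean, than the CAF-200 values did. The means were 2.41 ± 0.999 CPM (SD, n = 2) and 6.82 ± 0.774 CPM (SD, n = 3), a log2FC of 1.37 (SE 0.232, 95% interval 0.80 to 1.94, limma adjusted *p* = 0.0110). The log2FC was 1.01 without CAF-vec 1 and 1.73 without CAF-vec 2. The call was lost without CAF-200 2 (limma adjusted *p* = 0.0546) or CAF-200 3 (limma adjusted *p* = 0.0570). In bulk RNA, a change in the share of cells that express a gene and a change in RNA per cell cannot be told apart.

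*Lif* (ENSMUSG00000034394, chromosome 11, 4257557 to 4272514, plus strand) encodes leukemia inhibitory factor, which signals through LIFR and gp130. It was 0.166 and 0.972 CPM in CAF-vec against 2.17, 2.26 and 2.32 CPM in CAF-200. The 3 CAF-200 values were nearly alike and above both CAF-vec values, which differed widely from each other. The means of 0.569 ± 0.570 CPM (SD, n = 2) and 2.25 ± 0.0754 CPM (SD, n = 3) gave a log2FC of 1.47 (SE 0.333, 95% interval 0.65 to 2.30, limma adjusted *p* = 0.0241). Only 1 CAF-vec value reached the filter of 0.5 CPM, so *Lif* would have been tested through its CAF-200 values alone. Its log2FC depends on the pseudocount, with 1.10 at 1 CPM and 2.14 at 0.1 CPM, and on CAF-vec 1, without which it was 0.90. The call was lost when any 1 CAF-200 sample was left out (limma adjusted *p* = 0.0774 to 0.0945). The 3′-UTR of *Lif* holds the miR-200a match printed above.

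*Il11* (ENSMUSG00000004371, chromosome 7, 4772373 to 4782859, minus strand), a cytokine of stromal cells linked to fibrosis, was 0.571 and 0.759 CPM in CAF-vec against 1.47, 1.11 and 1.79 CPM in CAF-200. The groups did not overlap, but all values were low and the CAF-200 values were the more scattered ones. The means were 0.665 ± 0.133 CPM (SD, n = 2) and 1.46 ± 0.340 CPM (SD, n = 3), with a log2FC of 0.74 (SE 0.199, 95% interval 0.25 to 1.23, limma adjusted *p* = 0.0399). The call was the weakest of the 6 and was lost without CAF-vec 1 (limma adjusted *p* = 0.0639) or any 1 of the CAF-200 samples (limma adjusted *p* = 0.0613 to 0.128).

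*Clcf1* (ENSMUSG00000040663, chromosome 19, 4214238 to 4223490, plus strand) encodes cardiotrophin-like cytokine factor 1 and, per kilobase of exon, was the highest of the 4 ligands in both groups. It was 43.3 and 60.8 CPM in CAF-vec against 80.2, 76.4 and 88.7 CPM in CAF-200, again without overlap. The means were 52.1 ± 12.4 CPM (SD, n = 2) and 81.8 ± 6.27 CPM (SD, n = 3), a log2FC of 0.66 (SE 0.162, 95% interval 0.26 to 1.06, limma adjusted *p* = 0.0303). Without CAF-vec 1 the log2FC was 0.42, and the call was lost when any 1 CAF-200 sample was left out (limma adjusted *p* = 0.0865 to 0.120). An annotated protein-coding gene, *AC109138.7*, overlaps *Clcf1* on the same strand, so reads could be split between them.

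Among the 9 listed ligands of the IL-6 family, 5 were tested and 4 of these (*Il6*, *Lif*, *Il11* and *Clcf1*) were higher and none lower (11.9% and 18.6% of all genes tested), with 4 at an unadjusted *p* under 0.05 (limma; 44.9% of all genes) and a median log2 fold-change of 0.74. Without *Lif*, which was tested through its CAF-200 values, 3 of 4 were higher with a median of 0.70. The other, *Ctf1* (cardiotrophin 1), had a log2FC of 0.13 (limma adjusted *p* = 0.795), which was -0.34 without CAF-vec 1. *Osm* and *Ebi3* were listed at 0 in all samples, and *Cntf* and *Il27* were too low to be tested.

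**Figure D2:**
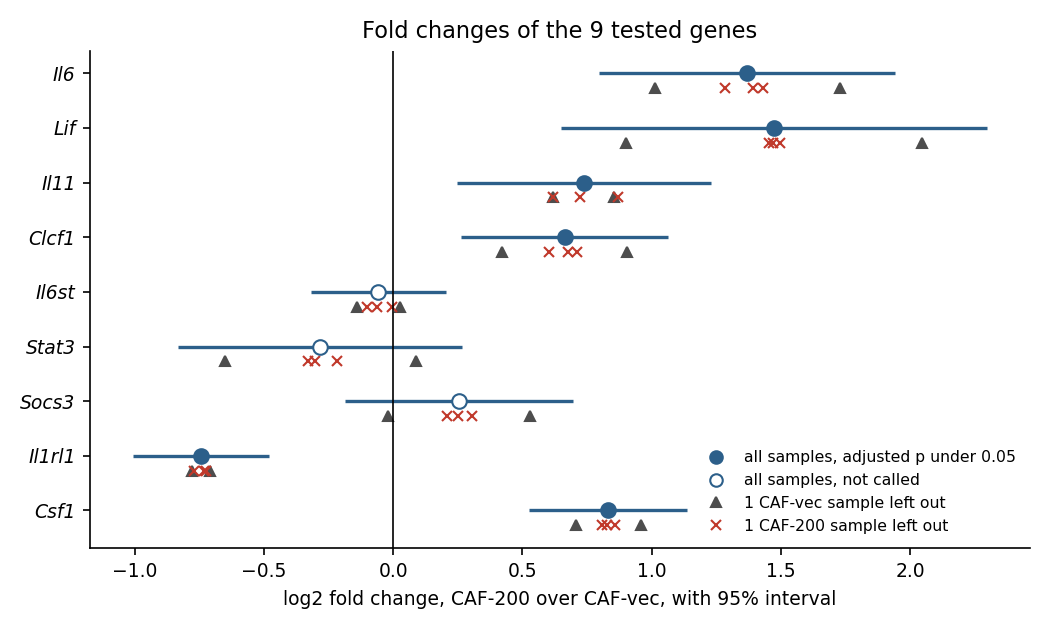
Log2 fold-change of CAF-200 over CAF-vec for the 9 tested genes, with the 95% interval from limma (horizontal lines; filled circles for adjusted p under 0.05, open circles for genes not called) and, under each line, the values with 1 CAF-vec sample (gray triangles) or 1 CAF-200 sample (red crosses) left out. The triangles spread further than the crosses for each gene but Il11, and those of Il6st, Stat3 and Socs3 fall on both sides of 0.

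*Il6st* (ENSMUSG00000021756, chromosome 13, 112464070 to 112510086, plus strand) was 178 and 199 CPM in CAF-vec against 182, 192 and 168 CPM in CAF-200, so the transcript of gp130 overlapped between groups. The means of 188 ± 15.4 CPM (SD, n = 2) and 181 ± 12 CPM (SD, n = 3) differed by less than the SD of either group (log2FC -0.06, SE 0.106, 95% interval -0.32 to 0.20, limma adjusted *p* = 0.698). The sign of this difference turned after quantile normalization and after centring. Some of the other receptor chains did differ. Of the 7 tested genes of the receptor list, 3 were lower and none was higher, against 18.6% and 11.9% of all genes, with a median log2 fold-change of -0.36. An unadjusted *p* under 0.05 was reached by 6 (limma), against 44.9% of all genes, and *Osmr* and *Cntfr* among these lay above 0. *Cntfr* was tested through its CAF-200 values alone, so its place among the 6 supports nothing about the list.

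*Il11ra1*, the receptor chain specific for IL-11, was 200 and 128 CPM in CAF-vec against 65.2, 63.9 and 59.9 CPM in CAF-200. It thus fell as its ligand rose, with a log2FC of -1.34 (SE 0.192, limma adjusted *p* = 0.00771), and it was the gene of the receptor list that passed both thresholds. *Il6ra*, the IL-6 binding chain, was 10.5 and 9.79 CPM against 6.87, 7.12 and 6.72 CPM (log2FC -0.52, limma adjusted *p* = 0.0143). *Lifr*, the chain that binds LIF, was 35.5 and 21.4 CPM against 14.6, 15.1 and 16.3 CPM (log2FC -0.83, limma adjusted *p* = 0.0352). The log2FC of *Lifr* ran from -1.19 to -0.47 over the alternatives. When any 1 CAF-200 sample was left out the calls of *Il6ra* and *Lifr* were lost (limma adjusted *p* up to 0.105 and 0.114 over the alternatives), whereas that of *Il11ra1* was kept. The other 2 receptor chains with positive values, *Osmr* (log2FC 0.66, limma adjusted *p* = 0.0714) and *Cntfr* (0.69, limma adjusted *p* = 0.0752, with both CAF-vec values under the filter of 0.5 CPM), were not called with all samples. The log2FC of *Osmr* was 0.29 without CAF-vec 1 and 1.02 without CAF-vec 2.

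*Stat3* (ENSMUSG00000004040, chromosome 11, 100885098 to 100939540, minus strand) was 138 and 82.2 CPM in CAF-vec against 93.3, 89.7 and 79.7 CPM in CAF-200. The CAF-200 values lay around the lower CAF-vec value, and CAF-vec 1 alone stood above them. The means were 110 ± 39.1 CPM (SD, n = 2) and 87.6 ± 7.02 CPM (SD, n = 3), with a log2FC of -0.28 (SE 0.222, 95% interval -0.83 to 0.27, limma adjusted *p* = 0.361). The result rested on which control was used, since the log2FC was 0.09 without CAF-vec 1 and -0.65 without CAF-vec 2. *Stat5a* overlaps *Stat3* on the other strand, and whether the counting used strand is not given in the sources used here.

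*Socs3* (ENSMUSG00000053113, chromosome 11, 117966079 to 117970047, minus strand) was 16.9 and 11.4 CPM in CAF-vec against 17.8, 16.8 and 15.5 CPM in CAF-200. As with *Stat3*, the groups overlapped and the CAF-vec samples lay farther apart than the CAF-200 samples. The means were 14.1 ± 3.91 CPM (SD, n = 2) and 16.7 ± 1.14 CPM (SD, n = 3), a log2FC of 0.26 (SE 0.178, 95% interval -0.19 to 0.70, limma adjusted *p* = 0.308). Leaving out CAF-vec 1 gave 0.53 and leaving out CAF-vec 2 gave -0.02.

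Of 10 tested kinases, STATs and adapters of the pathway, 1 was higher and 3 were lower, against 11.9% and 18.6% of all genes tested, with a median log2 fold-change of -0.18. *Jak2* was 25.8 and 28.7 CPM in CAF-vec against 41.3, 42.2 and 39.8 CPM in CAF-200 (log2FC 0.59, limma adjusted *p* = 0.00883), and this call was lost when any 1 CAF-200 sample was left out (limma adjusted *p* up to 0.0576 over the alternatives). *Tyk2*, another Janus kinase, was 15.4 and 15.6 CPM against 9.94, 9.20 and 9.17 CPM (log2FC -0.69, limma adjusted *p* = 0.00679), a call that was lost with the replicate number as a block (limma adjusted *p* = 0.0524). *Stat5b* (log2FC -0.49, limma adjusted *p* = 0.0398) and *Gab1*, an adapter (-0.39, limma adjusted *p* = 0.0411), were the other 2 lower genes. Over the alternatives the log2FC ran from -0.68 to -0.30 for *Stat5b* and from -0.48 to -0.29 for *Gab1*. Both lost the call after centring (limma adjusted *p* = 0.0503 and 0.0672) and with a CAF-200 sample left out (limma adjusted *p* up to 0.146 and 0.177 over the alternatives).

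Of the other members of the SOCS family listed, 2 were higher in CAF-200; their difference from *Socs3* was not tested. *Socs2*, known as a feedback inhibitor of growth hormone signaling through STAT5, was 30.0 and 17.8 CPM in CAF-vec against 92.0, 83.7 and 97.9 CPM in CAF-200 (log2FC 1.96, SE 0.221, limma adjusted *p* = 0.00437). *Cish*, another STAT5-induced inhibitor, was 1.06 and 1.25 CPM against 3.39, 3.44 and 3.61 CPM (log2FC 1.27, SE 0.124, limma adjusted *p* = 0.00331). *Socs1*, which inhibits Janus kinases, was 6.73 and 4.47 CPM against 4.02, 3.41 and 3.43 CPM and was not called (log2FC -0.55, limma adjusted *p* = 0.0769). Its log2FC ran from -0.81 to -0.28 over the alternatives. *Socs2* and *Cish* passed both thresholds and kept the call in each of the 13 alternatives. In the list of 10 feedback and negative regulators, 9 were tested, 2 were higher and 1, *Sh2b3*, was lower (log2FC -0.45, limma adjusted *p* = 0.0224), against 11.9% and 18.6% of all genes, with a median log2 fold-change of 0.09. The call of *Sh2b3* was lost with a CAF-200 sample left out (limma adjusted *p* up to 0.104 over the alternatives).

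Genes known to respond to STAT3 were listed apart. Of 15 listed genes 11 were tested, 5 were higher and none was lower, against 11.9% and 18.6% of all genes, and 5 had an unadjusted *p* under 0.05 (limma), a share near the 44.9% of all genes, with a median log2 fold-change of 0.15. *Timp1*, an inhibitor of matrix metalloproteinases, was 246 and 296 CPM in CAF-vec against 2208, 2055 and 2587 CPM in CAF-200, a log2FC of 3.07 (SE 0.155, limma adjusted *p* = 0.00096). It was the gene of the list that passed both thresholds. The others were *Il4ra*, the receptor chain for IL-4 (log2FC 1.37, limma adjusted *p* = 0.0124), *Bcl3*, a regulator of NF-κB (0.94, limma adjusted *p* = 0.0228), and the transcription factors *Junb* (0.78, limma adjusted *p* = 0.00458) and *Myc* (0.79, limma adjusted *p* = 0.00691). *Timp1*, *Junb* and *Myc* kept their calls in each of the 13 alternatives, whereas those of *Il4ra* and *Bcl3* were lost when any 1 CAF-200 sample was left out (limma adjusted *p* up to 0.0624 and 0.0852 over the alternatives). The acute-phase genes of the list, *Lcn2*, *Saa3* and *Hp*, as well as *Fgl2*, were too low to be tested, and the 6 genes not called, among them *Cebpb* and *Ccnd1*, had log2 fold-changes from -0.53 to 0.15.

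**Figure D3:**
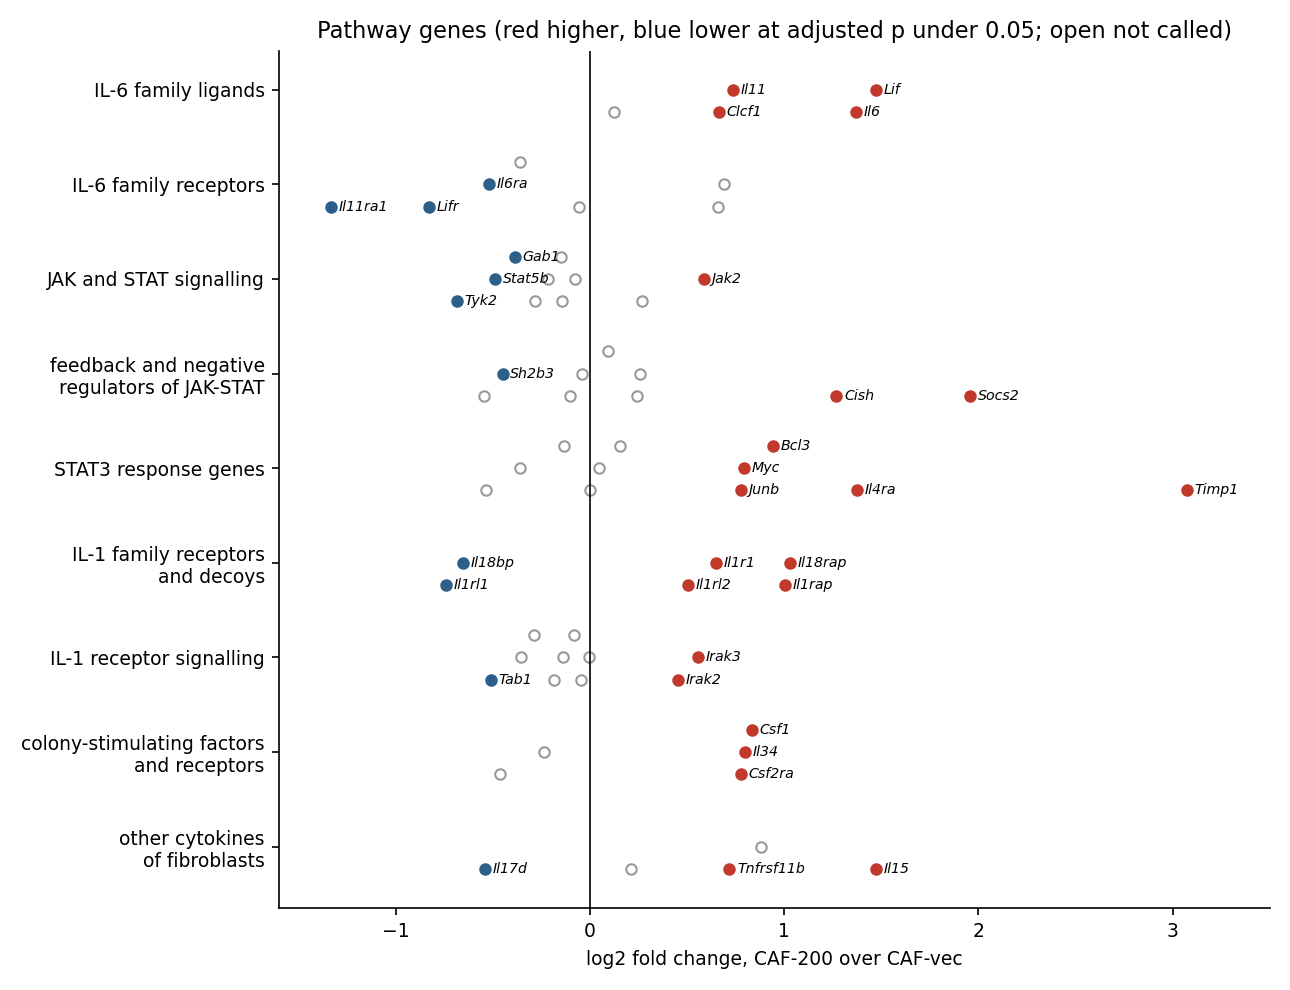
Log2 fold-change of CAF-200 over CAF-vec for the tested genes of 9 pathway lists, 1 list per row, with called genes named in red (higher) or blue (lower) and genes not called as open circles; points within a row are spread vertically for legibility. The called IL-6 family ligands lie between 0.66 and 1.47 and the called receptors between -1.34 and -0.52, while the signaling and feedback lists hold calls on both sides of 0.

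*Il33* (ENSMUSG00000024810, chromosome 19, 29925114 to 29960718, plus strand), an alarmin of the IL-1 family, was listed at 0 in all 5 samples and has no fold-change. Of the 8 IL-1 family ligands with a row in the table, *Il1a*, *Il1b*, *Il1f6*, *Il1f8* and *Il1f9* were also at 0 throughout. *Il18* was the ligand high enough to be tested, at 4.79 and 8.70 CPM in CAF-vec against 8.09, 9.61 and 7.76 CPM in CAF-200 (log2FC 0.36, limma adjusted *p* = 0.302). Its log2FC was -0.04 without CAF-vec 1 and 0.76 without CAF-vec 2.

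*Il1rl1* (ENSMUSG00000026069, chromosome 1, 40429570 to 40465415, plus strand), which encodes the IL-33 receptor ST2 in a membrane-bound and a soluble form, was the one gene of the 10 that fell. It was 1238 and 1299 CPM in CAF-vec against 739, 747 and 788 CPM in CAF-200, and the groups were far apart compared with the spread within either. The means were 1269 ± 43.1 CPM (SD, n = 2) and 758 ± 26.6 CPM (SD, n = 3), a log2FC of -0.74 (SE 0.107, 95% interval -1.01 to -0.48, limma adjusted *p* = 0.00771). Leaving out either CAF-vec sample changed it little, to -0.78 or -0.71. With any 1 CAF-200 sample left out the value lay between -0.77 and -0.72 but the adjusted *p* was 0.0536 to 0.0586 (limma), and the call was lost. *Il1rl1* also held the match to the miR-200b and miR-429 seed printed above. The table gives 1 value per gene, so the forms of ST2 were not separated. Of 8 markers of mast cells and innate lymphoid cells, which also express ST2, *Tpsb2*, *Fcer1a*, *Il7r* and *Hpgds* were at 0 in all samples. The list summed to 26.2 to 36.2 CPM in CAF-vec against 7.29 to 7.60 CPM in CAF-200, nearly all of it *Gata3*, which fell by 1.99 on the log2 scale (limma adjusted *p* = 0.00252), and the part of such cells in the *Il1rl1* result was not tested.

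Of 6 tested genes of the list of receptors and decoys, 4 were higher and 2 lower (11.9% and 18.6% of all genes), and the median log2 fold-change was 0.58. *Il1rap*, the accessory chain shared by the receptors of IL-1 and IL-33, was 9.25 and 9.97 CPM in CAF-vec against 18.8, 21.0 and 19.5 CPM in CAF-200 (log2FC 1.00, SE 0.0982, limma adjusted *p* = 0.00331). *Il18rap*, the accessory chain of the IL-18 receptor, was 13.8 and 15.2 CPM against 30.5, 28.3 and 31.4 CPM (log2FC 1.03, SE 0.0966, limma adjusted *p* = 0.00305). The chains of the ST2 complex therefore moved in opposite directions, *Il1rl1* down and *Il1rap* up. *Il1r1*, which binds IL-1 (log2FC 0.65, limma adjusted *p* = 0.0093), and *Il1rl2*, the receptor for IL-36 (0.51, limma adjusted *p* = 0.0238), were also higher, and the decoy *Il18bp* was lower (-0.65, limma adjusted *p* = 0.0210). The calls of these last 3 genes were lost with a CAF-200 sample left out (limma adjusted *p* up to 0.0576, 0.115 and 0.0888 over the alternatives), and those of *Il1rap* and *Il18rap* were kept. Downstream of the receptors, 10 genes were tested, of which *Irak2* (0.45, limma adjusted *p* = 0.0113) and *Irak3* (0.56, limma adjusted *p* = 0.0407) were higher and *Tab1* was lower (-0.51, limma adjusted *p* = 0.0447), against 11.9% and 18.6% of all genes. None of these 3 calls was kept with a CAF-200 sample left out (limma adjusted *p* up to 0.105, 0.142 and 0.157 over the alternatives), and that of *Tab1* was also lost after quantile normalization (limma adjusted *p* = 0.0625).

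*Csf1* (ENSMUSG00000014599, chromosome 3, 107741048 to 107760469, minus strand) encodes macrophage colony-stimulating factor. It was 558 and 664 CPM in CAF-vec against 1088, 1046 and 1119 CPM in CAF-200, with a wide gap between the groups. The means were 611 ± 74.9 CPM (SD, n = 2) and 1084 ± 36.6 CPM (SD, n = 3), a log2FC of 0.83 (SE 0.124, 95% interval 0.53 to 1.14, limma adjusted *p* = 0.00816). The log2FC lay between 0.71 and 0.96 without a CAF-vec sample and between 0.81 and 0.86 without a CAF-200 sample, and in the latter case the call was lost (limma adjusted *p* = 0.0509 to 0.0574). Of the 5 tested colony-stimulating factors and receptors, 3 were higher and none lower (11.9% and 18.6% of all genes), and 3 had an unadjusted *p* under 0.05 (limma; 44.9% of all genes), with a median log2 fold-change of 0.78. Besides *Csf1* these were *Il34*, the other ligand of the CSF1 receptor, at 5.53 and 6.58 CPM against 9.86, 10.4 and 12.6 CPM (log2FC 0.80, limma adjusted *p* = 0.0136), and *Csf2ra*, a chain of the GM-CSF receptor (0.78, limma adjusted *p* = 0.0499). The call of *Il34* was lost without CAF-200 2 or CAF-200 3 (limma adjusted *p* up to 0.0587 over the alternatives) and that of *Csf2ra* under 7 of 13 alternatives (up to 0.156). *Csf1r*, the receptor itself, was 4.97 and 2.31 CPM in CAF-vec against 2.29, 2.36 and 2.39 CPM in CAF-200 (log2FC -0.46, limma adjusted *p* = 0.250; 0.02 without CAF-vec 1).

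Macrophages are a further source of these cytokines and receptors. Of 10 macrophage markers, which include *Csf1r*, 4 were tested and 1 was higher, *Lyz2*, at 1.11 and 1.99 CPM in CAF-vec against 7.48, 7.16 and 6.48 CPM in CAF-200 (log2FC 1.91, limma adjusted *p* = 0.00395). The other 3 lay below 0 without a call, *Csf1r* as given above, *Cd14* at 6.70 and 4.12 CPM against 3.42, 3.72 and 4.13 CPM (log2FC -0.44, limma adjusted *p* = 0.159) and *Cd68* at 2.25 and 5.01 CPM against 2.39, 3.31 and 3.54 CPM (-0.14, limma adjusted *p* = 0.758). *Adgre1*, *Fcgr3* and *C1qa* were at 0 in all samples, and the list summed to 13.5 to 15 CPM in CAF-vec against 15.6 to 16.6 CPM in CAF-200. The part of such cells in the differences of *Il6* and *Csf1* was not tested.

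Of the other cytokines listed for fibroblasts, 5 of 10 were tested, 2 were higher and 1 lower (11.9% and 18.6% of all genes), with a median log2 fold-change of 0.72. *Il15* was 0.0138 and 0.531 CPM in CAF-vec against 1.76, 1.86 and 1.04 CPM in CAF-200 (log2FC 1.47, limma adjusted *p* = 0.0286). The log2FC of *Il15* ran from 0.97 to 2.58 over the alternatives. Like *Lif*, *Il15* had 1 CAF-vec value at the filter of 0.5 CPM and would have been tested through its CAF-200 values alone, so its place among the higher genes supports nothing about the list. *Tnfrsf11b*, the decoy osteoprotegerin, had a log2FC of 0.72 (limma adjusted *p* = 0.0260). *Il17d* was the lower gene (-0.54, limma adjusted *p* = 0.0348). With any 1 CAF-200 sample left out the calls of all 3 were lost (limma adjusted *p* up to 0.101, 0.0894 and 0.132 over the alternatives), and that of *Il17d* was lost after centring (limma adjusted *p* = 0.0783). *Tnf* was too low to be tested.

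Over all pathway lists without the 10 genes themselves, 60 of 88 genes were tested, 18 were higher (*Il15* included) and 10 lower, and 6 passed both thresholds (*Il11ra1*, *Socs2*, *Cish*, *Timp1*, *Il1rap* and *Il18rap*). The shares over all genes tested were 11.9% higher, 18.6% lower and 4.72% past both thresholds, so the lower genes were called about as often as genes in general. The median log2 fold-change of the 60 was -0.0015, against -0.09 for all genes tested. With 1 CAF-200 sample left out 7 or 8 were higher and 2 lower, against 3.56% to 4.34% and 3.96% to 5.74% of all genes in those fits. Without CAF-vec 2 there were 20 lower of 60, when 39.7% of all genes were lower.

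**Figure D4:**
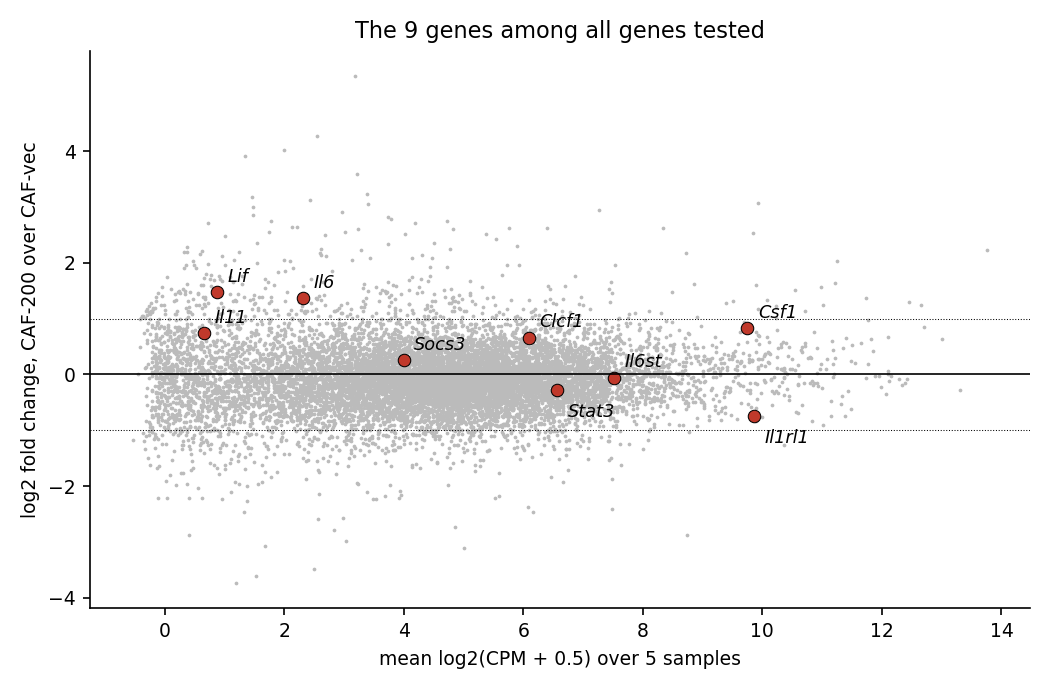
Mean log2(CPM + 0.5) over the 5 samples (horizontal axis) and log2 fold-change of CAF-200 over CAF-vec (vertical axis) for the 12175 genes tested (gray) and the 9 tested genes described here (red); dotted lines mark log2 fold-changes of 1 and -1. Lif and Il6 lie above the upper dotted line near the left end of the axis, whereas Csf1 and Il1rl1 lie inside the lines towards the right.

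Levels of different genes were compared per kilobase of annotated exon. In CAF-vec, *Il1rl1* stood highest at 184 ± 6.25 CPM per kilobase (SD, n = 2), followed by *Csf1* at 116 ± 14.2, and in CAF-200 the order was exchanged, with *Csf1* at 205 ± 6.93 CPM per kilobase (SD, n = 3) and *Il1rl1* at 110 ± 3.86. The values of these 2 genes did not overlap in either group. The next 3 in CAF-vec were *Il6st* (17.0 ± 1.38 CPM per kilobase), *Clcf1* (13.7 ± 3.25) and *Stat3* (11.5 ± 4.11), whose neighbours differed by about their spread or less. In CAF-200, *Clcf1* at 21.5 ± 1.65 CPM per kilobase stood above *Il6st* at 16.3 ± 1.08 and *Stat3* at 9.19 ± 0.737 without overlap. *Socs3* followed in both groups, at 4.89 ± 1.35 and 5.76 ± 0.395 CPM per kilobase. Among the genes above 0, the secreted cytokines of the IL-6 family other than *Clcf1* were the rarest transcripts. In CAF-vec and CAF-200, *Il6* was at 0.992 ± 0.412 and 2.81 ± 0.319, *Il11* at 0.320 ± 0.0639 and 0.700 ± 0.163, and *Lif* at 0.131 ± 0.131 and 0.518 ± 0.0173 CPM per kilobase. In CAF-200 the values of *Il11* and *Lif* overlapped.

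**Figure D5:**
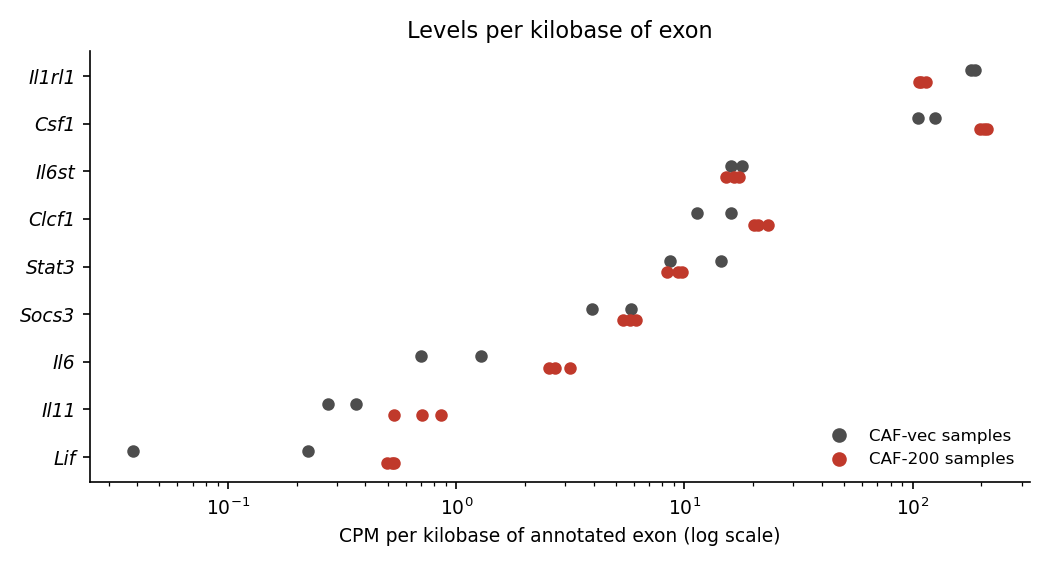
CPM per kilobase of annotated exon (log scale) in each CAF-vec sample (gray) and CAF-200 sample (red) for the 9 genes above 0, ordered by their mean in CAF-vec. Il1rl1 and Csf1 lie near or above 100 CPM per kilobase and exchange their order between the groups, and Il6, Il11 and Lif lie at or below 3.17.

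The promoters were searched because STAT3 and NF-κB are the known activators of this family. RefSeq promoters (GRCm38.p6), from 250 bases before to 50 after each start site, were found for 9 of the 10 genes, all but *Clcf1*. The STAT motif TTCNNNGAA, read on both strands, occurred in 8.3% of 32851 promoters and among these genes in *Socs3*, at chr11:117969512-117969520, positions -154 to -146 from the start. The NF-κB motif GGGNNNNNCC, also read on both strands, occurred in 50.8% of promoters and in those of *Il6*, *Lif*, *Il11*, *Il6st*, *Socs3* and *Csf1*. The *Socs3* site and the sites of *Il6* and *Csf1*, at chr5:30013070-30013079 and chr3:107760615-107760624, are shown with 8 bases on either side and the motif in capitals.
Socs3, STAT motif: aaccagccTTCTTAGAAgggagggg
Il6, NF-κB motif: tcaaatgtGGGATTTTCCcatgagtc
Csf1, NF-κB motif: ggccttgaGGGAAAGTCCctaggggc

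The *Il6* motif lies at positions -44 to -35 and the *Csf1* motif at -155 to -146 from the start, each on the strand of the gene. Of the genes with the NF-κB motif, which 50.8% of all promoters hold, *Il6*, *Lif*, *Il11* and *Csf1* were higher in CAF-200. *Il6st* and *Socs3*, which hold it too, were not called. No measurement of factor binding belongs to these data. The letters of the NF-κB motif are loose, and in *Il6* and *Csf1* matches on the other strand overlap those printed.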

How the data were processed

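RNA of cultured CAFs was sequenced as stranded paired-end mRNA libraries. The authors deposited 1 table of CPM values, named for TMM scaling, and the submitters' processing notes list FastQC, cutadapt, Trimmomatic, STAR, RSEM and edgeR with the builds GRCm38 and mm10. The deposited CPM values are not whole multiples of a read (11.2% to 55.9% of low values lay within 0.02 of one), so no count test was run and depth is unknown. Low values also differ by group. There were 816 to 1108 genes above 0 and under 0.005 CPM in each CAF-200 column and 0 in both CAF-vec columns. The number at 0 was 6127 in every CAF-200 column, against 7898 and 7413 in CAF-vec. *Csf2*, for example, was 0.0705, 0.000214 and 0.000192 CPM in CAF-200. Whether the CAF-200 columns were adjusted together is not given in the sources used here, so they may not be independent measurements. How this bears on low genes, on the *p* values or on the smaller CAF-200 spread was not tested. All 5 sample columns were used and 0 were left out. Ensembl identifiers were matched to GENCODE M21 (GRCm38) for names, exons and positions.

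The filter kept genes that reached 0.5 CPM in 2 or more samples. Comparisons used log2(CPM + 0.5), which understates changes of low genes, with limma 3.58.1 in R 4.3.3 (variance trend, two-sided, Benjamini-Hochberg adjustment over 12175 genes). The test was checked on simulated data in which both groups had the same spread per gene. It found a median of 63% of genes changed by 1 on the log2 scale, with a median of 7 false calls. CAF-vec spread wider than CAF-200 in the real values, a case that the check does not cover. Lists and scripts used Python 3.11.15, pandas 2.3.3, numpy 2.4.6 and matplotlib 3.10.9. Alternatives were other pseudocounts, filters, normalizations and thresholds, a constant variance, the omission of single samples, and a block for the replicate number.

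The 10 genes and all lists were chosen with earlier results of these data known. By rule the text names the 10 genes, the genes of each list past both thresholds or else its largest called changes, marker genes past both thresholds or at 0, *Zeb1*, *Zeb2* and the 3 genes closest to *Il6*. Any further gene was named with its values in view, the remaining listed genes enter by their counts, and 1 gene was left out of the lists and is not reported here. *Il37* has no row in the table. The *Il36* genes carry the symbols *Il1f6*, *Il1f8* and *Il1f9* in the annotation.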

Additional observations from a re-analysis of the deposited data

How the results depend on the processing

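Of 115 values of the 9 tested genes under the alternatives, 86 kept direction and side of the threshold, 22 kept the direction but lost the call, 2 gained one and 5 changed sign. The sign changes were *Il6st* after quantile normalization (log2 fold-change 0.0424), after centring (0.0397) and without CAF-vec 2 (0.0261), *Stat3* without CAF-vec 1 (0.0866) and *Socs3* without CAF-vec 2 (-0.0205); none of these values had a call. With the other CAF-vec sample left out the values were -0.140, -0.652 and 0.531. The number of the 10 genes higher in CAF-200, 5 with all samples, was 3 at a filter of 1 CPM in every sample, where *Il11* and *Lif* were not tested, 1 at an adjusted *p* under 0.01, and 0 to 5 with 1 sample left out. The number lower, 1, was 0 to 2 with 1 sample left out. Past both thresholds there was 1 gene after quantile normalization and 0 to 2 with 1 sample left out, against 0 in the reported fit. Without CAF-200 1, 2 or 3, limma called 1, 0 and 0 genes higher and 0 lower, while 5 were higher and 1 lower at an unadjusted *p* under 0.05 each time. A lone CAF-vec sample was assumed to vary like the CAF-200 samples. The 18 other pathway genes higher in CAF-200 were 9 at an adjusted *p* under 0.01 and 7 to 24 with 1 sample left out. The 10 lower ones were 5 without a filter, 6 after centring, 2 at an adjusted *p* under 0.01 and 2 to 20 with 1 sample left out. The whole table moved alike: the share of all genes called lower, 18.6% with all samples, was 12.5% without a filter, 14.4% after centring, 5.57% at an adjusted *p* under 0.01 and 3.96% to 39.7% with 1 sample left out, and the share higher, 11.9%, was 4.45% at an adjusted *p* under 0.01 and 3.56% to 24.9% with 1 sample left out. Apart from the smaller number of samples or genes, the cause of these changes was not tested.

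The samples share replicate numbers, but nothing states that a number marks a shared culture, and only 2 numbers occur in both groups. The deviations from the group means correlated at 0.249 for number 1 and 0.134 for number 2, and at 0.119 for CAF-vec 2 with CAF-200 3, so the numbers were not taken as pairs. With the replicate block 2 of the 10 genes were higher (*Il6* and *Lif*) and 0 lower in limma, with 5 and 1 at an unadjusted *p* under 0.05, and 11 other pathway genes were higher and 1 (*Il11ra1*) lower, when 5.17% of all genes were higher and 7.0% lower. CAF-200 3, which has no CAF-vec partner, drops out of the fold-change in that fit.

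Count tests with edgeR or DESeq2 were not run because whole reads could not be recovered. Depth is unknown, so no counting error can be given for low values such as those of *Lif*, *Il11* and *Il6*.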

Other observations

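The 3 tested genes whose centred log2 values over the 5 samples lay closest to those of *Il6*, by Euclidean distance, were *Adgrd1* (distance 0.141), an adhesion G-protein-coupled receptor, *Ikzf2* (0.157), the transcription factor Helios, and *E2f8* (0.248), a cell cycle transcription factor. *Adgrd1* was 1.96 and 3.86 CPM in CAF-vec and 7.72, 8.43 and 7.75 CPM in CAF-200. *Ikzf2* was 1.08 and 1.94 CPM against 4.02, 4.56 and 4.33 CPM, and *E2f8* was 5.26 and 8.39 CPM against 18.9, 19.2 and 19.8 CPM. In each of them, as in *Il6*, CAF-vec 1 was the lowest sample and all CAF-200 samples lay above CAF-vec 2. The likeness is a description over 5 samples of 2 groups, in which any gene that separates the groups in the same way comes close.

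Several listed cytokines too low to be tested were nonetheless listed above their CAF-vec level in each CAF-200 sample. *Il1rn*, the IL-1 receptor antagonist, was 0 and 0.0196 CPM in CAF-vec and 0.341, 0.540 and 0.264 CPM in CAF-200, and *Cntf* was 0.175 and 0.229 CPM against 1.03, 0.485 and 0.445 CPM. These values were picked out after they were seen and carry no test.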
